A study of Mus musculus with 12 samples.

Results

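The comparison was of liver messenger RNA in 39-week-old female mice conceived by in vitro fertilization (IVF) and in females of the same age conceived naturally. It used the 3 IVF and the 3 natural female libraries, 6 of the 12 libraries of the series, chosen by the sex and mode of conception in their labels, and all 24527 gene symbols of the count table. All animals were offspring of CF1 females and B6SJL males, so that both groups shared a mixed genetic background, and the labels name no engineered allele. IVF animals came from those parents through an IVF procedure, so that egg and sperm met in a dish. The labels do not say whether animals shared a litter. An IVF female and an IVF male carry the same stem in their animal numbers, and whether the stem marks a litter is not given. The p-values treat all animals as independent, which the labels do not settle. The remaining 6 libraries, 3 of IVF and 3 of natural males, entered the test to help estimate the spread between animals.

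The adult liver makes plasma proteins, cholesterol, bile acids and glucose, and it clears hormones and drugs. Many of its genes follow the time of day and the feeding state, and many are set by sex through the pattern of growth hormone release. IVF places the egg and the early embryo in culture medium at a time when DNA methylation, including that of imprinted genes, is being set or maintained. The comparison asks which liver genes of adult females differ after that start.

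Library totals were 6826534, 21833725 and 22073863 counts in IVF females 1 to 3 and 23430136, 8056230 and 14302287 counts in natural females 1 to 3. Animals were numbered within each group in the order of their records. IVF female 1 and natural female 2 were the shallowest. These 2 libraries also held fewer counts of GC-rich genes, with a log2 difference between the fifth of genes richest in G and C and the fifth poorest of -0.50 and -0.49, against 0.14 to 0.36 in the other 4. One of them lay in each group. Each result was also computed without both, called below the fit without the shallow libraries. Natural female 3 stood apart in another way: 12 genes of at least 5 CPM there were at least 5-fold above every other female library, against 0 to 3 such genes in each of the other 5. All 10 hepatocyte markers passed the filter on low counts, and their summed level was similar in both groups (130214 to 142711 CPM after IVF and 128069 to 137958 CPM after natural conception). For single genes, CPM give the count relative to the library's total, after scaling by the trimmed mean of M-values (TMM). Summed levels of marker lists, here and below, are relative to the library's total without TMM scaling. The TMM factors ran from 0.99 in IVF female 1 to 1.21 in natural female 3, so sums and single-gene values are not on the same scale.

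No gene of 13204 tested passed an adjusted p of 0.05 in edgeR's quasi-likelihood test with Benjamini-Hochberg adjustment (0% called). The smallest adjusted p was 0.273, for C730036E19Rik, and it was 1 for every other gene named here. An unadjusted p under 0.05 was reached by 488 genes (3.7%), of which 225 were higher (1.7%) and 263 lower (1.99%) in IVF females. The 3 IVF libraries lay wholly above the 3 natural ones for 469 genes (3.55%) and wholly below for 511 (3.87%). Log2 fold changes are IVF over natural throughout. Their median over all genes was -0.01, and the median standard error of 0.31 exceeded the median absolute change of 0.19, so that a change of typical size was not detectable. DESeq2's Wald test called 4 genes (0.0303%), and limma voom called 0 with 469 at an unadjusted p under 0.05.

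Both genes that DESeq2 called higher in IVF females had no overlap between groups. Esr1, which encodes estrogen receptor alpha (chr10:4611989-5005633, GRCm38.p6), had 67.2, 74.3 and 68.5 CPM in IVF females 1 to 3 and 37.9, 27.6 and 37.2 CPM in natural females 1 to 3. The libraries within each group were close, and the group means of 70.0 ± 3.79 and 34.2 ± 5.76 CPM (SD, n = 3 each) stood further apart than either spread. The log2 fold change of Esr1 was 1.03 ± 0.22 (SE), with an unadjusted edgeR p of 0.000577. The Benjamini-Hochberg adjusted p of Esr1 was 0.0213 in DESeq2 and ran up to 1 over the alternative settings. In males the log2 fold change of Esr1 was -0.70 ± 0.22 (SE), and the difference between the sexes had an adjusted p of 0.878 in edgeR (Benjamini-Hochberg). Serpina12 encodes vaspin, a secreted serine protease inhibitor (chr12:104028769-104044443). It had 7.87, 3.49 and 9.36 CPM after IVF and 1.85, 0.599 and 0.637 CPM after natural conception, a log2 fold change of 2.62 ± 0.55 (SE). All 3 IVF animals were above the natural ones, from low levels. Its Benjamini-Hochberg adjusted p was 0.00273 in DESeq2 and up to 1 over the alternatives.

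The other genes highest in the ranking by unadjusted p, among those without overlap, had varied roles. Alas1 (chr9:106233455-106247954) encodes the first, rate-limiting enzyme of haem synthesis, and it showed one of the widest differences. It was at 580.2, 304 and 274 CPM in the IVF females and 25.4, 84.7 and 128 CPM in the natural females, with a log2 fold change of 2.28 ± 0.58 (SE). The lowest IVF animal had more than the highest natural one, although the natural females differed among themselves by a wide margin. Abcc4 (chr14:118482692-118707856), an efflux pump for bile acids and cyclic nucleotides, was at 16.3, 16.9 and 10.0 CPM against 4.61, 8.39 and 5.85 CPM. Pm20d1 (chr1:131797385-131821472), an enzyme that joins fatty acids to amino acids, was at 334, 271 and 221 CPM against 131, 141 and 137 CPM. Their log2 fold changes were 1.21 ± 0.30 and 1.01 ± 0.27 (SE). 9030617O03Rik was also higher, at 37.7, 32.4 and 36.0 against 18.6, 18.1 and 18.0 CPM. Trappc13, a subunit of a vesicle-tethering complex, differed little but tightly, with 42.0, 43.3 and 43.2 CPM after IVF and 30.1, 31.8 and 29.5 CPM after natural conception. H2-Q4, Ttc8, Jchain and Adamts5 were also among the 12, with log2 fold changes of 0.82, 1.14, 1.62 and 0.77.

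Among the genes lower in IVF females, C730036E19Rik and Col5a2 were the 2 that DESeq2 called. C730036E19Rik, a long noncoding RNA (chr1:151138034-151144095), had 3.27, 3.28 and 2.22 CPM in the IVF females and 18.4, 33.7 and 13.9 CPM in the natural females. Its highest IVF value lay well under its lowest natural value, and the log2 fold change was -2.92 ± 0.43 (SE). Leaving out 1 library at a time kept it between -3.13 and -2.48. In males it was 0.10, and the difference between the sexes had an adjusted p of 0.878 in edgeR (Benjamini-Hochberg). Col5a2, a chain of type V collagen (chr1:45374331-45503282), had 2.82, 2.54 and 2.18 CPM after IVF and 6.34, 34.3 and 18.0 CPM after natural conception. The natural animals differed more than 5-fold among themselves, while the IVF animals were close to each other. Benjamini-Hochberg adjusted p in DESeq2 was 2.14e-07 for C730036E19Rik and 0.000707 for Col5a2, and over the alternatives it ran up to 1 for both. The remaining 10 genes lowest in the ranking were mostly of low level. Tmem51 (chr4:142030990-142084928), a membrane protein, had 4.16, 4.53 and 4.92 CPM against 14.9, 10.3 and 11.2 CPM, and Dll1, a ligand of Notch receptors, had 2.67, 3.49 and 3.59 CPM against 5.82, 5.51 and 7.30 CPM. Card10, a scaffold of NF-kappaB signalling, had 7.42, 10.7 and 12.99 CPM against 29.8, 14.9 and 18.3 CPM. Nlgn2, Thumpd2, Gcnt4, Iffo1, Kifc2, Samd1 and Zfp358 had log2 fold changes between -1.40 and -0.64.

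**Figure D1:**
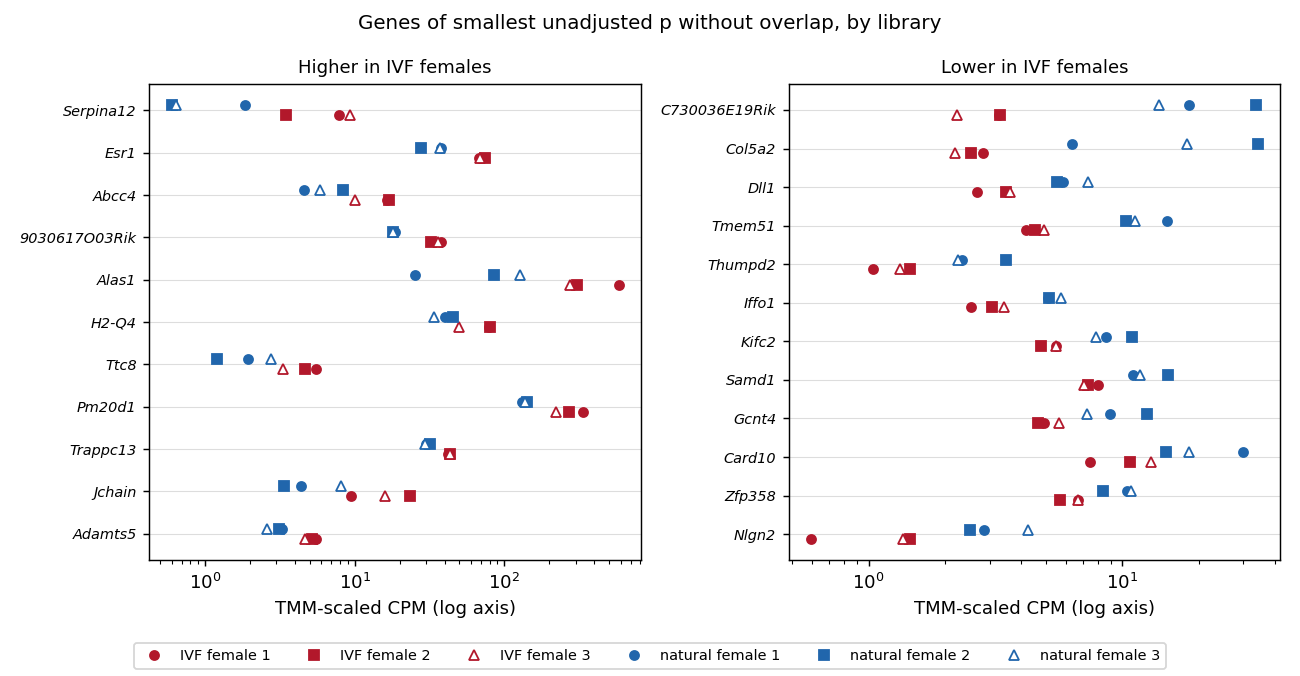
Level of 11 genes higher and 12 genes lower in IVF females that were taken from the ranking, in TMM-scaled CPM on a log axis, with 1 point per animal (red for IVF, blue for natural). In each of these genes the 3 IVF animals lie wholly above or wholly below the 3 natural animals, which was a condition of the ranking.

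Genes of cholesterol synthesis and uptake were mostly higher in IVF females. Cells make cholesterol from acetyl-CoA through mevalonate and squalene, and the factor SREBP2 raises the enzymes together when sterols are low. Of 38 genes listed and tested, 34 had a log2 fold change above 0, against 47.8% of all genes, and the median was 0.66. At an unadjusted p under 0.05, 6 were higher (15.8%, against 1.7% of all genes) and 0 lower. The groups did not overlap for 1 of the 38 (2.63%, against 3.55% of all genes). The mevalonate enzymes had a median of 1.02, with 8 of 9 higher, and all 13 enzymes from squalene to cholesterol were higher, with a median of 0.91.

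Mvd, which makes isopentenyl pyrophosphate, had 25.4, 9.23 and 53.8 CPM after IVF and 2.61, 5.75 and 11.4 CPM after natural conception. Fdft1, the squalene synthase, was the member without overlap, though barely, with 189.5, 61.1 and 169 CPM against 37.0, 53.0 and 61.0 CPM. Sqle, the next enzyme, had 163, 40.9 and 184 CPM against 12.6, 36.6 and 84.0 CPM and an unadjusted p of 0.0698. IVF female 2 was the lowest of its group and natural female 3 the highest of its group in each of these 3 enzymes. Insig1, the sterol-regulated brake on SREBP2, had 911, 285 and 481 CPM against 116, 186 and 419 CPM, and Lss, which closes the sterol rings, had 122, 44.6 and 124 CPM against 26.5, 37.2 and 73.6 CPM. Srebf2, which encodes SREBP2 itself, was at 30.4, 52.3 and 96.8 CPM against 40.6, 20.1 and 56.0 CPM, and the groups overlapped.

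The size of this difference moved with single libraries. Without IVF female 3 the list's median was 0.33, with 26 of 38 genes higher (background 48%) and 3 at an unadjusted p under 0.05 (background 1.5%). Without IVF female 2 there were 17 such genes (background 2.25%), without natural female 1 there were 3 (background 2.11%), and without natural female 3 there were 14 (background 1.94%), with a median of 0.97. Without the shallow libraries the median was 0.51 and 35 of 38 genes were higher (background 51.2%), but 1 had an unadjusted p under 0.05 (background 2.31%). The sterol regulatory element, searched in 1 strict form on both strands, was in 0 of 28 matched promoter windows of these genes and in 0.27% of all genes' windows. The windows held 250 bases before and 50 after each RefSeq start, and other forms of the element were not searched.

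**Figure D2:**
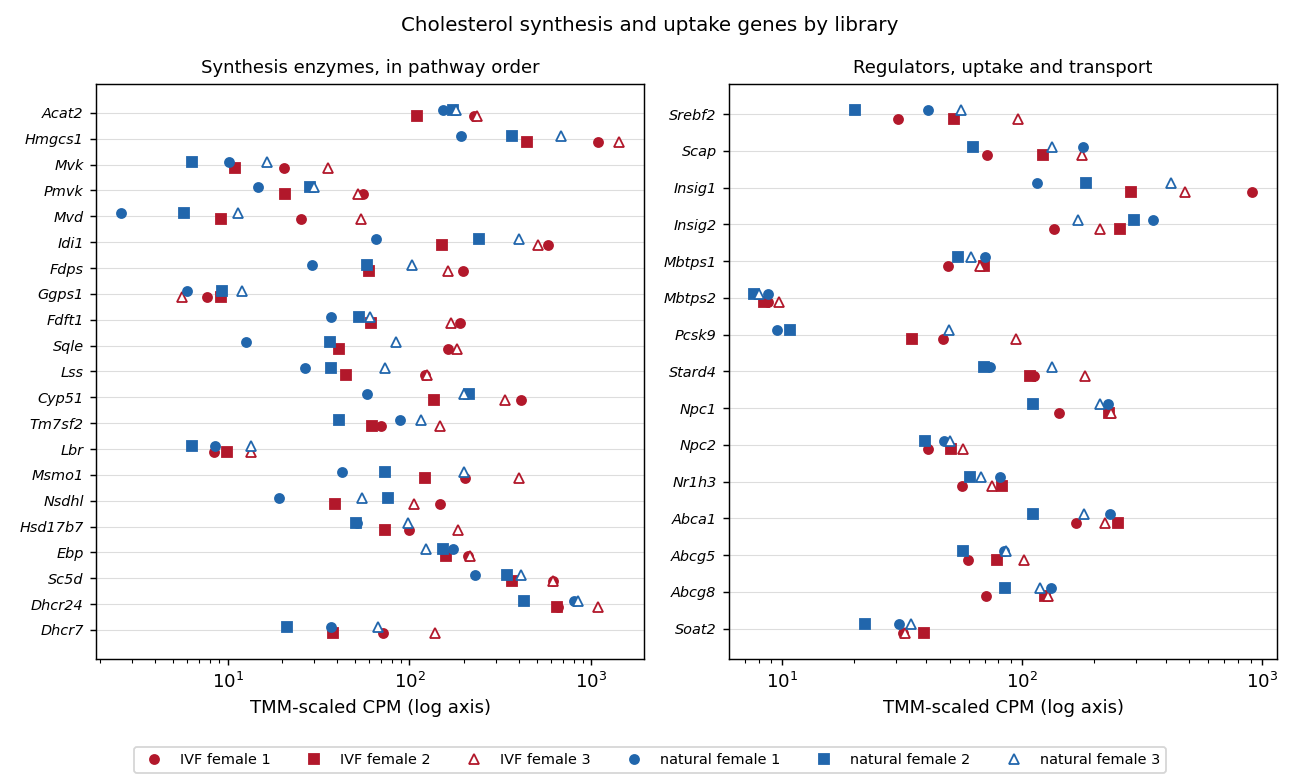
Level of 36 genes of cholesterol synthesis, regulation, uptake and transport, in TMM-scaled CPM on a log axis, with 1 point per female animal (red for IVF, blue for natural). Among the enzymes on the left, IVF females 1 and 3 are mostly highest and natural female 1 mostly lowest, while IVF female 2 and natural female 3 lie between.

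Interferon-stimulated genes were also mostly higher in IVF females. Interferons are signals of viral infection, and they act through transcription factors that bind a GAAA-rich element in the promoters of antiviral genes. Of 48 genes listed and tested, 42 had a log2 fold change above 0, and the median was 0.51. At an unadjusted p under 0.05, 10 were higher (20.8%, against 1.7% of all genes) and 0 lower. Groups did not overlap for 13 genes, all higher (27.1%, against 3.55%). By role, the medians were 0.51 for the 9 transcription factors and sensors, 0.59 for the 27 antiviral effectors and 0.45 for the 12 interferon-inducible GTPases and chemokines.

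The promoter element searched, GAAA followed after any 2 bases by GAAA again, on both strands and with overlapping matches counted, was in 22 of 36 matched members (61.1%) and in 3.99% of all genes with a RefSeq window. The stretches below are shown because they belong to the 4 members that had both an unadjusted p under 0.05 and the element ahead of the start. Each runs from 30 bases before its first element to 30 bases after its last, or to the last base before the start of the gene where that is nearer, as in Igtp, from 5′ to 3′ on the strand of the gene, and the elements are in capitals, written TTTC on the opposite strand. They come from RefSeq promoters of GRCm38.p6, and a match is a description of the letters, not of binding.
Ifit1: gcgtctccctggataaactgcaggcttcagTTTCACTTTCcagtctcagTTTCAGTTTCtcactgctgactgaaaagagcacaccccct
Ifit3: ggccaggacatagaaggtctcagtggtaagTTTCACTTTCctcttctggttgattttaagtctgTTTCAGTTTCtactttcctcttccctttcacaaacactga
Isg15: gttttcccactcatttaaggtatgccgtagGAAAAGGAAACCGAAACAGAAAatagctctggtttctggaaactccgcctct
Igtp: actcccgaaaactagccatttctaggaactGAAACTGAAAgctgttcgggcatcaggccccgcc
Ifit1 (chr19:34640755-34640843, plus strand) holds 2 elements, beginning 104 and 85 bases before the start. Ifit3 (chr19:34583343-34583446, plus strand) holds 2, at 156 and 122 bases. Isg15 (chr4:156200845-156200926, minus strand) holds 3 that overlap, the first at 78 bases and the last at 66, and Igtp (chr11:58199492-58199555, plus strand) holds 1, at 34 bases.

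The 4 genes differed in how their libraries were spread. Ifit1, whose protein binds foreign RNA ends, had 30.6, 3.53 and 6.497 CPM in the IVF females and 2.25, 4.67 and 3.36 CPM in the natural females. The value of IVF female 1 was several times that of any other animal, and IVF female 2 lay among the natural females. Ifit3, the partner of Ifit1, had 28.2, 9.27 and 13.3 CPM against 5.54, 5.99 and 8.28 CPM, without overlap. Isg15, a ubiquitin-like modifier, had 5.34, 2.99 and 3.89 CPM against 2.53, 1.80 and 2.49 CPM, also without overlap. Igtp, one of the interferon-inducible GTPases, was even within each group, with 43.9, 33.5 and 44.4 CPM against 25.8, 26.2 and 25.9 CPM. The log2 fold changes were 1.97 ± 0.75, 1.33 ± 0.43, 0.79 ± 0.33 and 0.64 ± 0.25 (SE) for Ifit1, Ifit3, Isg15 and Igtp.

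Oasl1 and Zbp1, a translation regulator and a sensor of nucleic acids, were the other members among the 4 of smallest p. Oasl1 had 10.4, 2.62 and 5.001 CPM against 2.45, 1.44 and 1.56 CPM, and Zbp1 had 15.7, 6.61 and 6.67 CPM against 2.89, 6.23 and 3.01 CPM, again with IVF female 1 highest. Without IVF female 1 the median of the list was 0.31, with 3 genes higher and 1 lower at an unadjusted p under 0.05 (background 1.62% and 2.25%). Without natural female 1 there were 4 higher and 1 lower (background 2.11% and 2.58%), and without natural female 2 there were 18 higher (background 4.38%). Without the shallow libraries 42 of 48 genes were higher, 9 of them at an unadjusted p under 0.05 (background 2.31%). Kupffer cell and macrophage markers, whose cells respond to interferon, had 12 of 14 members higher with a median of 0.19. Their summed level was 516 to 767 CPM after IVF and 486 to 730 CPM after natural conception, and their part in the interferon result was not tested. In bulk tissue, fewer cells of a type and less RNA per cell cannot be told apart.

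**Figure D3:**
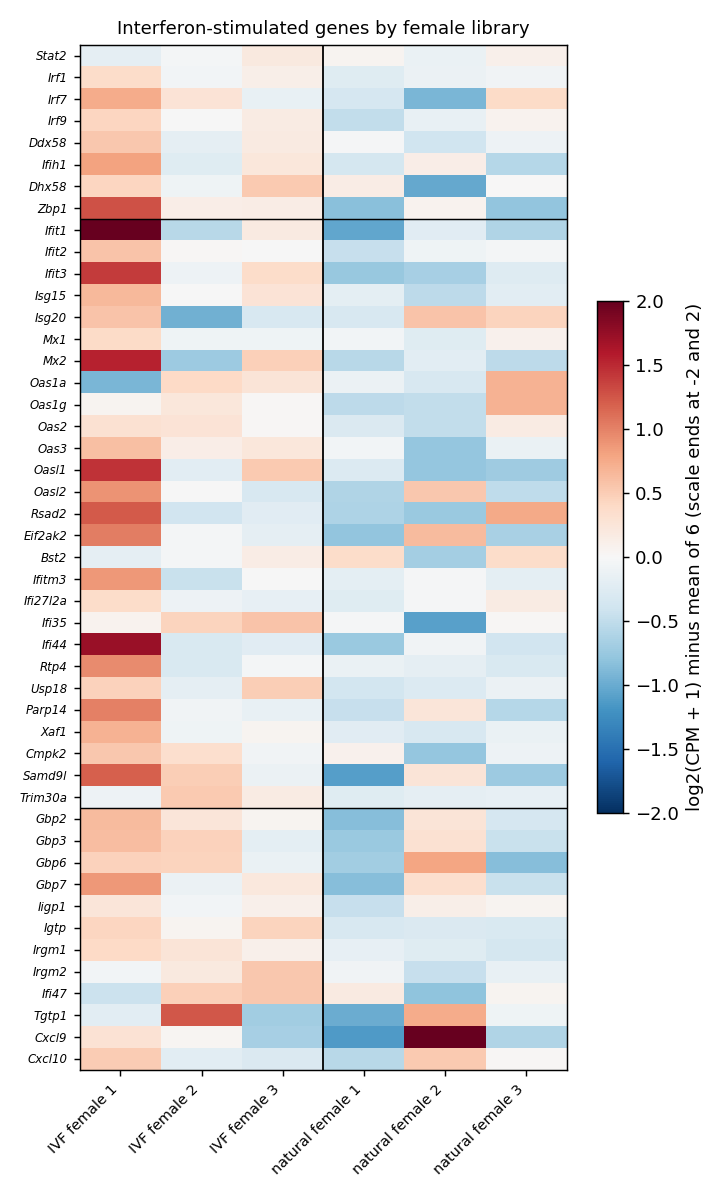
Interferon-stimulated genes (47 rows, grouped by role) in each female library, coloured by log2(CPM + 1) minus the mean of the 6 libraries, red for higher and blue for lower. IVF female 1 is red in most rows and natural female 1 blue in most.

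Genes that present antigen were described as a separate list of 19, with 16 higher and a median of 0.24. H2-Q4, a nonclassical class I gene, had 78.8, 80.6 and 50.01 CPM after IVF and 39.9, 45.1 and 33.8 CPM after natural conception, but class I genes are near-identical copies, and how reads shared by several of them were counted is not given in the sources used here. The 7 class II genes were all higher, with a median of 0.53, but the groups overlapped for each of them. Their summed level was 125, 299 and 120 CPM after IVF and 164, 164 and 94.2 CPM after natural conception, with IVF female 2 far above the rest. With 1 female library left out the class II median fell as low as -0.08. The median of the whole list moved with 1 library: without IVF female 2 it was -0.01. The log2 fold change of H2-Q4 was between 0.70 and 1.01 with each female library left out. H2-Q4 was chosen for no overlap, so that its sign in these fits was largely set by that choice. Jchain, the joining chain of secreted antibodies, had 9.50, 23.3 and 15.9 CPM against 4.41, 3.36 and 8.05 CPM. It was 1 of 7 markers of B and plasma cells, whose summed level was 11.6 to 31.4 CPM after IVF and 5.96 to 15.0 CPM after natural conception.

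Genes known to be higher in female than in male liver tended to be higher in IVF females. Of 40 tested out of 41 listed, 30 had a log2 fold change above 0, the median was 0.30, and 7 were higher at an unadjusted p under 0.05 (17.5%, against 1.7% of all genes) with 0 lower. Without the shallow libraries the median was 0.51, with 35 higher and 10 at an unadjusted p under 0.05 (background 2.31%). Without natural female 1 the median was 0.19, with 4 at an unadjusted p under 0.05 (background 2.11%), and without IVF female 2 there were 3 higher and 2 lower (background 2.25% and 1.86%). The cytochromes P450 of this list were divided, with 6 of 14 higher and a median of -0.04. The transferases, transporters and other genes had 24 of 26 higher and a median of 0.53. Sult1e1, which sulfates and inactivates estrogens, had 3.86, 2.95 and 14.0 CPM in the IVF females and 0.160, 2.28 and 0.637 CPM in the natural females, low throughout. Slc16a5, a monocarboxylate transporter, had 25.4, 41.1 and 24.0 CPM against 16.2, 14.7 and 13.3 CPM, and Atp6v0d2, a proton pump subunit, had 69.2, 35.3 and 45.1 CPM against 12.3, 20.1 and 11.7 CPM. Neither overlapped. A1bg, a plasma glycoprotein, had 562, 1645 and 394 CPM against 424, 275 and 365 CPM, where IVF female 2 stood far above all others, and without that animal the log2 fold change was 0.43.

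Male-biased genes showed no common direction, with 17 of 36 tested higher and a median of -0.06. Hsd3b5, a steroid dehydrogenase of male liver, had 20.2, 1.83 and 8.98 CPM after IVF and 1.93, 2.28 and 0.232 CPM after natural conception, and IVF female 2 lay among the natural animals. Mup3, a major urinary protein, had 2029, 947 and 1366 CPM against 2927, 2316 and 1727 CPM, in a family of near-identical genes. Hormone receptors and the growth hormone axis had 14 of 26 tested members higher, and Esr1 was the single member at an unadjusted p under 0.05 (3.85%, against 1.7% higher among all genes). Ghr, the growth hormone receptor, had 688, 638 and 544 CPM against 441, 533 and 456 CPM without overlap, and Igf1, its main target, had 1563, 899.6 and 1255 CPM against 879.8, 1369 and 824 CPM with overlap. Por, which passes electrons to all microsomal cytochromes P450, had 632, 660.0 and 654 CPM against 403, 422 and 555 CPM, also without overlap.

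The circadian clock turns over daily through the activators CLOCK and BMAL1 and the repressors PER and CRY, and the time of day at which livers were taken is not given in the sources used here. All 3 period genes were higher in IVF females without overlap. Per1 had 29.7, 28.8 and 19.7 CPM after IVF and 3.13, 4.55 and 13.6 CPM after natural conception. Per2 had 43.3, 22.1 and 24.7 CPM against 5.90, 13.7 and 19.3 CPM, and Per3 had 33.4, 30.4 and 44.8 CPM against 6.02, 8.15 and 26.3 CPM. In each of them natural female 3 was nearest to the IVF animals. The activators were lower: Clock had 46.2, 61.7 and 51.8 CPM against 77.7, 86.0 and 64.3 CPM without overlap, and Arntl, which encodes BMAL1, had 4.30, 6.69 and 2.91 CPM against 15.5, 22.2 and 4.23 CPM, where natural female 3 lay among the IVF animals. Log2 fold changes were 1.87 ± 0.64 for Per1, 1.21 ± 0.42 for Per2, 1.42 ± 0.45 for Per3, -0.51 ± 0.19 for Clock and -1.57 ± 0.48 for Arntl (SE). These 5 were all of the 19 tested clock genes at an unadjusted p under 0.05, 3 higher (15.8%, against 1.7%) and 2 lower (10.5%, against 1.99%). Without overlap, 4 of the 19 were higher (21.1%, against 3.55% of all genes) and 1 was lower (5.26%, against 3.87%). Of the 10 repressors in the list, 8 were higher, and their log2 fold changes ran from -0.80 to 2.01. Of the 4 tested activators, 3 were lower. Of the same 19 genes, without natural female 3 there were 7 higher and 3 lower (background 1.94% and 1.27%), and the smallest adjusted p over all genes in edgeR (Benjamini-Hochberg) was then 0.0803, for Per3. Without the shallow libraries 1 of the 19 was higher and 0 were lower (background 2.31% and 2.43%), and 1 was lower without IVF female 1 (background 2.25%) or without natural female 2 (background 3.61%). Alas1 and the cholesterol enzymes are also known to vary over the day, and the part of the clock genes in their differences was not tested.

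**Figure D4:**
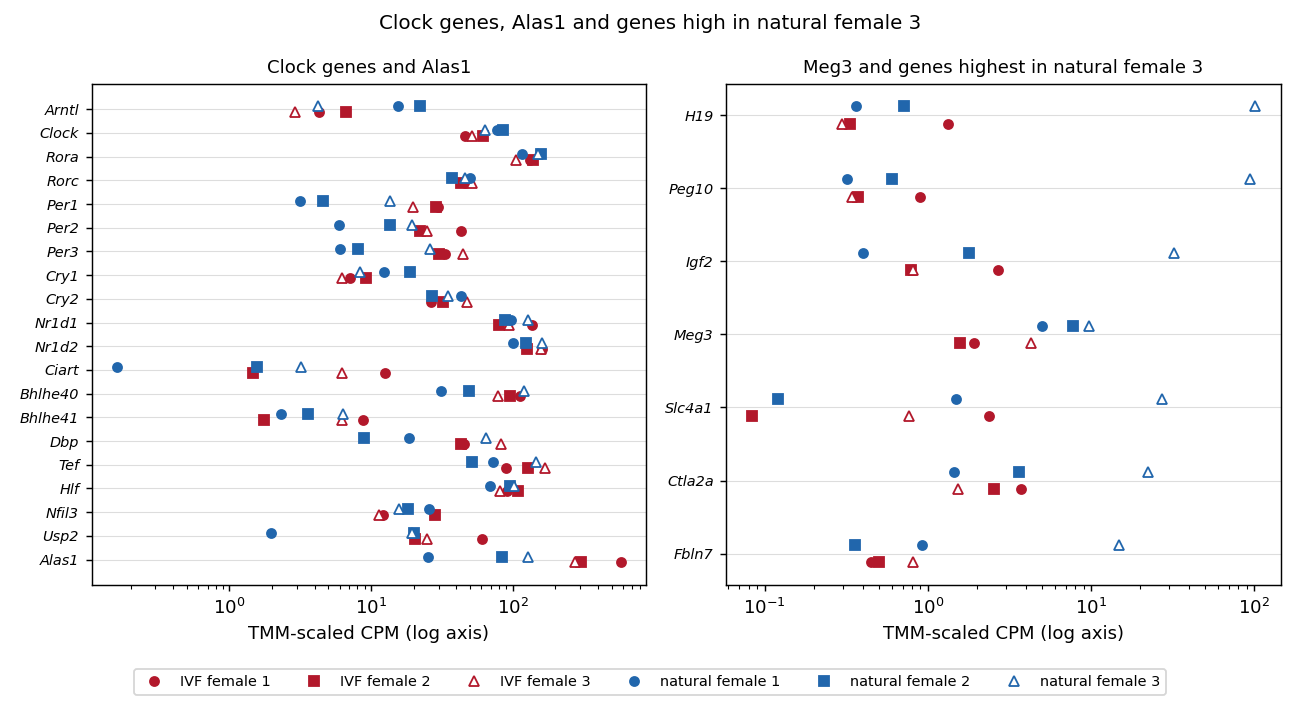
Level of the clock genes and Alas1 (left), and of Meg3 and 6 genes highest in natural female 3 (right), in TMM-scaled CPM on a log axis, with 1 point per female animal (red for IVF, blue for natural). Per1, Per2 and Per3 are higher and Clock is lower in all 3 IVF animals, and H19, Peg10 and Igf2 are high in natural female 3 alone.

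Lists of other metabolic pathways were nearer to the background. Fatty acid and triglyceride synthesis had 22 of 35 genes higher and a median of 0.20, which was 0.06 without the shallow libraries and 0.54 without natural female 3, where 10 genes were higher at an unadjusted p under 0.05 (background 1.94%). Thrsp, a carbohydrate-responsive lipogenic protein, had 498, 59.7 and 148 CPM after IVF and 10.95, 19.8 and 96.3 CPM after natural conception. Acly, which supplies cytosolic acetyl-CoA, had 198, 94.99 and 225 CPM against 93.5, 74.2 and 134 CPM. Mlxipl, which encodes the glucose-sensing factor ChREBP, went the other way, with 189, 142 and 142 CPM against 217, 189.9 and 294 CPM and no overlap. Srebf1 and Fasn, a regulator and the fatty acid synthase, overlapped, and their log2 fold changes were 0.54 ± 0.41 and 0.56 ± 0.53 (SE). Fatty acid oxidation and ketogenesis had 23 of 34 higher with a median of 0.05, which turned negative when scaled by library size alone and without IVF female 2 (-0.19). Bile acid synthesis and transport had 18 of 26 with a median of 0.11. Cyp7a1, the rate-limiting enzyme of bile acid synthesis, had 427, 158 and 261 CPM against 259, 287 and 62.7 CPM, widely spread in both groups.

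Glucose metabolism had 18 of 29 genes higher and a median of 0.07, which turned negative when scaled by library size alone and without natural female 2 (-0.05). Without overlap, 2 of the 29 were higher (6.90%, against 3.55% of all genes) and 2 were lower (6.90%, against 3.87%). Pck1, which commits carbon to gluconeogenesis, had 1766, 1538 and 1743 CPM in the IVF females and 863, 871 and 1019 CPM in the natural females. All 3 IVF animals were above the natural ones, and the unadjusted p of Pck1 was 0.165 in edgeR's test. G6pc, which releases free glucose, was lower without overlap, at 44.5, 92.3 and 61.5 CPM against 162, 119 and 123 CPM. Ppp1r3c, a glycogen-targeting subunit of protein phosphatase, was lower as well, at 29.7, 67.3 and 48.9 CPM against 101, 142 and 71.3 CPM, with an unadjusted p of 0.00939. Urea cycle and amino acid genes had 24 of 30 higher, a median of 0.18 and 0 at an unadjusted p under 0.05, where 1.7% of all genes were higher and 1.99% lower. Xenobiotic and oxidative defence had 20 of 34 higher with a median of 0.08, and Cyp1a2, which metabolizes caffeine and arylamines, had 1113, 617 and 692 CPM against 511, 467 and 598 CPM without overlap.

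Secretory functions leaned upward by small amounts. Among 73 genes of secreted plasma proteins, 56 were higher with a median of 0.16, and within them 30 of 32 complement and coagulation genes were higher with a median of 0.28, which lay between 0.17 and 0.36 when each library was left out. Masp1, a protease that starts the lectin pathway of complement, had 163, 103 and 101 CPM after IVF and 88.8, 98.5 and 54.1 CPM after natural conception. Chaperones and degradation factors of the endoplasmic reticulum had 16 of 17 higher with a median of 0.57, or 0.29 without the shallow libraries. Hspa5, their main member, had 1852, 657 and 936 CPM against 425, 665 and 694 CPM, highest in IVF female 1, while Edem1, a factor for disposal of misfolded glycoproteins, had 231, 223 and 251 CPM against 186, 142 and 192 CPM without overlap. The 13 genes of the integrated stress response had 6 higher and a median of -0.14. Acute phase genes had 25 of 34 higher with a median of 0.20, which was 0.03 without IVF female 1. Saa1, a strongly inducible member, ranged more than 10-fold within the IVF females, at 1307, 595 and 105 CPM against 241, 394 and 93.9 CPM.

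**Figure D5:**
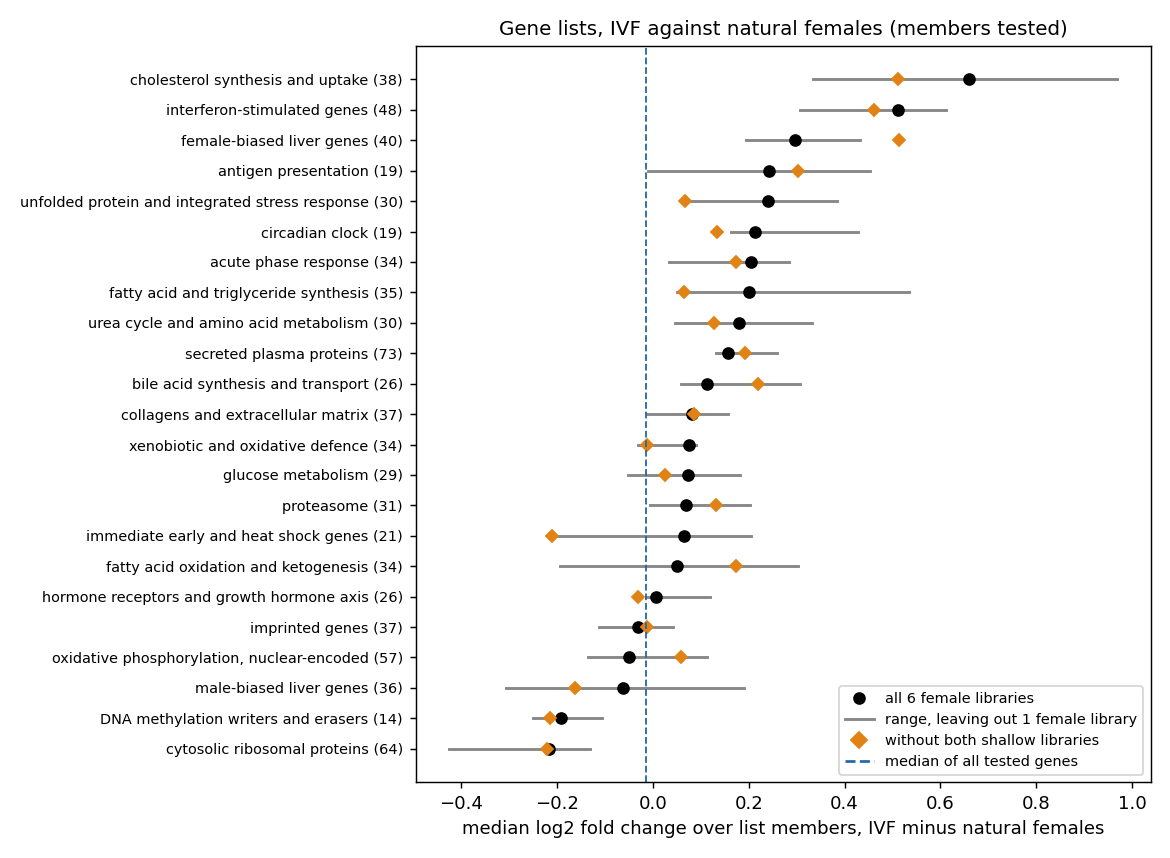
Median log2 fold change (IVF over natural females) of each gene list, as a black point, with a grey line for the range when each female library is left out in turn, an orange diamond for the fit without both shallow libraries and a dashed line at the median of all tested genes. The lists of cholesterol and of interferon-stimulated genes lie furthest above 0, and the cytosolic ribosomal proteins and the DNA methylation genes lie below it.

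Groups that leaned downward were fewer. Cytosolic ribosomal proteins had 14 of 64 higher and a median of -0.22, between -0.42 and -0.13 with each library left out, and 3 were lower at an unadjusted p under 0.05 (4.69%, against 1.99%). This count moved with single libraries: it was 17 without natural female 1 (background 2.58%), 14 without IVF female 1 (background 2.25%) and 7 without natural female 2 (background 3.61%), and 0 without IVF female 2 (background 1.86%) or natural female 3 (background 1.27%). Without the shallow libraries it was 6 (background 2.43%). Rps29, the one with the smallest p, had 33.2, 8.85 and 11.8 CPM after IVF and 12.1, 45.2 and 84.1 CPM after natural conception, with natural female 1 among the IVF animals. Their many near-identical pseudogenes make single counts uncertain. Nuclear-encoded genes of oxidative phosphorylation had 19 of 57 higher and a median of -0.05. Writers, erasers and readers of DNA methylation had 2 of 14 tested members higher and a median of -0.19. For 4 of the 14 the IVF animals were wholly below the natural ones (28.6%, against 3.87%), though 0 had an unadjusted p under 0.05 (against 3.7%). Dnmt3a, which sets methylation on new sites, had 19.6, 25.2 and 22.5 CPM against 28.6, 27.7 and 27.6 CPM. Dnmt1, which copies methylation at replication, had 12.3, 12.3 and 11.5 CPM against 15.0, 12.6 and 12.7 CPM, and the difference of Gadd45g was -1.16 ± 0.83 (SE, log2).

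Imprinted genes, expressed from 1 parental copy, were a group in which natural female 3 weighed heavily. Of 37 tested out of 50 listed, 17 were higher, the median was -0.03, and 5 were lower at an unadjusted p under 0.05 (13.5%, against 1.99%), namely H19, Igf2, Peg10, Peg3 and Meg3. H19 (chr7:142575530-142578146), a noncoding RNA of fetal liver, had 1.34, 0.333 and 0.299 CPM after IVF and 0.361, 0.719 and 102 CPM after natural conception. Igf2, the fetal growth factor gene next to it, had 2.67, 0.790 and 0.812 CPM against 0.401, 1.80 and 32.4 CPM, and Peg10, a retrotransposon-derived gene, had 0.891, 0.374 and 0.342 CPM against 0.321, 0.599 and 93.7 CPM. All 3 were low in 5 animals and high in natural female 3, which was also above all 6 males. Their log2 fold changes of -6.07, -3.21 and -6.10 became 0.14, 0.40 and 0.17 without that library, and 1 gene of the list was then lower at an unadjusted p under 0.05 (background 1.27%). Meg3, a noncoding RNA of another imprinted cluster, did not overlap between the groups, at 1.93, 1.58 and 4.27 CPM against 4.97, 7.79 and 9.73 CPM. Rian, of the same cluster, had 1.04, 0.707 and 3.12 CPM against 3.69, 4.79 and 4.06 CPM, likewise without overlap. Over the 37 tested genes, 2 were lower without overlap (5.41%, against 3.87% of all genes) and 1 was higher (2.70%, against 3.55%). These shares were near the background.

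Natural female 3 differed in other genes too, chosen here after their values were seen. Slc4a1, the anion exchanger of red cells, was at 27.4 CPM in that animal and at most 2.37 CPM in the other females, and Fbln7, an adhesion protein of the matrix, was at 14.9 CPM against at most 0.92 CPM. Markers of dividing cells summed to 76.1 CPM there and to 20.9 to 41.3 CPM in the other 5 females. The bile duct keratin Krt19 was at 1.04, 0.665 and 0.470 CPM in the IVF females and 0.401, 0.1198 and 4.92 CPM in the natural females. Of the other tested bile duct markers, Krt7, Epcam and Muc1 were also highest in natural female 3, while Sox9, Spp1 and Tspan8 were not. The bile duct markers summed to 40.8 CPM in that animal, within the 24.1 to 44.8 CPM of the other 5 females. The part of dividing or bile duct cells in the levels of H19, Igf2 and Peg10 was not tested.

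Collagens and other matrix genes were balanced, with 22 of 37 tested higher and a median of 0.08. Tgfbi, an adhesion protein, had 46.6, 60.4 and 57.7 CPM after IVF and 43.8, 30.7 and 33.4 CPM after natural conception, and Postn, periostin, had 38.1, 18.6 and 14.9 CPM against 10.1, 14.1 and 12.9 CPM. Both were higher without overlap, opposite to Col5a2, and Col1a1 did not differ beyond its spread, at 2.67, 2.62 and 3.33 CPM against 2.21, 2.28 and 3.82 CPM. Stellate cell and fibroblast markers had 11 of 14 higher with a median of 0.20, and their summed level was 465 to 596 CPM after IVF and 420 to 499 CPM after natural conception. Endothelial markers had 10 of 12 higher with a median of 0.09. T and NK cell markers had 1 of 7 tested higher, and their summed level was 4.17 to 6.55 CPM after IVF, 14.4 CPM in natural female 2 and 4.95 and 4.75 CPM in natural females 1 and 3. Without natural female 2, 5 of the 7 were higher, and without both shallow libraries 4 were. Adipocyte, pancreatic and muscle lists had 1 tested member each. The globins Hbb-bs, Hbb-bt and Hba-a2 were at 0 counts in all 6 females, although the red cell markers Alas2 and Slc4a1 were counted in each of them. The 0 counts of the globins therefore do not show that red cell RNA was absent.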

How the data were processed

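The authors deposited whole-number read counts per gene symbol in 1 table, with a column for each of the 12 livers. Per the labels, RNA was taken from snap-frozen liver with TRIzol, poly-A selected, prepared with a KAPA kit and sequenced on an Illumina NextSeq instrument. The submitters' processing notes name Trimmomatic 0.32, STAR 2.3.0e, featureCounts 1.5.0 and the build mm10. The sources used here do not give the annotation, the strand setting or how reads shared by several genes were counted, so reads from near-identical or overlapping genes cannot be told apart. Of 24527 symbols, 5498 had no count.

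edgeR 4.0.16 (R 4.3.3) was run on the counts of all 12 libraries, with filterByExpr, TMM scaling, 1 mean per group and quasi-likelihood tests, adjusted after Benjamini-Hochberg over 13204 genes that held at least 99.6% of each library's counts. Each standard error was obtained from the log2 fold change and the F statistic of its test. Intervals were not computed. The limit that a count of 0 allows, 3 counts, corresponds to 0.13 to 0.44 CPM without TMM scaling, from counting error only. DESeq2 1.42.0 and limma 3.58.1 were alternatives. The fit was tested on simulated counts.

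Named genes were those called by either tool, the 12 higher and 12 lower of smallest p with an unadjusted p under 0.05, no overlap, a mean of at least 50 scaled counts in the higher group and the same sign without the shallow libraries, up to 4 per list by p, and a set of fixed members. Clock, Insig1, Lss, Igtp, G6pc, Rian and Fbln7 were named outside this rule after their values were seen. The members and lists were chosen with earlier results of these data known. Positions and promoter windows are from RefSeq (GRCm38.p6), of which 28 of 38 cholesterol and 36 of 48 interferon genes had a window. A few members counted in the lists are not reported here by name, in the text or in the figures.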

Additional observations from a re-analysis of the deposited data

How the results depend on the processing

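The count of genes at an adjusted p under 0.05 was 0 in edgeR with all libraries and in each of the fits that left out 1 female library (lowest 0, highest 0), where 431 to 1076 genes had an unadjusted p under 0.05. It was also 0 with other scalings, filters, a GC-content offset, limma voom, the female libraries alone, without Rn45s, without both shallow libraries and at an adjusted p under 0.1, and 4 in DESeq2, the exception. Of 73 genes given with values, 68 had the same sign in all 16 alternatives. Genes from the ranking were chosen for no overlap and for the same sign without the shallow libraries, which is 1 of the 16. For those genes the agreement was largely set by that choice. With 1 library left out, the log2 fold change ranged from -6.74 to 0.14 for H19, -3.85 to 0.40 for Igf2, -6.68 to 0.17 for Peg10 and -1.96 to 1.17 for Krt19, each highest without natural female 3. That of Col1a1 was -0.0356 by library size alone and ranged from -0.10 to 0.39 with 1 library left out. Among 37 lists, 17 kept the sign of their median in all 16, the lists of cholesterol, interferon, female-biased, ribosomal and DNA methylation genes among them, while the small medians of fatty acid oxidation, glucose, xenobiotic, imprinted, matrix and oxidative phosphorylation genes changed sign in at least 1. No paired analysis was possible because the labels give no replicate number shared between IVF and natural animals. Depth limits the low genes most, since 1 of the 3 libraries in each group is shallow.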
